A study of Rattus norvegicus with 325 samples.

Results

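The diaphragm, the muscle sheet that drives breathing, was compared between old and young adult rats. The libraries compared are the 24 whose labels name the diaphragm and an age of 27 or 6 months, 12 at each age, out of 325 in the whole study. The study sequenced RNA from the diaphragm, gastrocnemius, soleus and tibialis anterior of male Sprague Dawley rats, an outbred stock, at 7 ages from 6 to 27 months. No treatment, transgene or mutation is named for any group, so the older and the younger rats differ by label in age only. The rats of one age were killed under isoflurane on a single day, between morning and early afternoon, and the muscle was kept in RNAlater. Age and collection day therefore cannot be told apart. The labels number the libraries within a group but do not name the animal. The study states that its sample numbers for a muscle are also its numbers of animals. The p-values therefore measure the spread between these libraries, taken as separate rats within a group.

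Each fibre of a skeletal muscle is held under the control of a motor nerve through a cluster of acetylcholine receptors at the neuromuscular junction. When that contact is lost, a fibre makes fetal receptor subunits and growth-control factors again along its length, and these transcripts are widely used as signs of denervation in aged muscle. The diaphragm differs from limb muscle in being active through the whole of life, with slow and fast fibres mixed in a thin sheet bounded by tendon, mesothelium and a matrix rich in fibrillar collagen.

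Levels are given as log2 CPM, the log2 of counts scaled to a common library total, and changes as the fitted log2 difference of 27 minus 6 months with its standard error (± SE, 12 against 12 libraries). A gene rose or fell where limma-voom gave a Benjamini-Hochberg adjusted p under 0.05 over the 12035 genes tested, two-sided, and a change over 1.5-fold. The libraries held 19.43 to 62.98 M counts at 6 months and 21.67 to 55.62 M at 27 months. Markers of skeletal muscle were high: the slow myosin Myh7 ran from 13.97 to 14.81 over both groups, and the fast myosins Myh1 and Myh2 ran from 14.21 to 15.15 and from 13.42 to 14.01. These myosins do not set the diaphragm apart from limb muscle. Of all genes tested, 393 rose (3.27%) and 512 fell (4.25%). With edgeR's quasi-likelihood test the shares were 3.31% and 3.99%, with DESeq2 3.49% and 3.84%, and at an unadjusted p under 0.05, whatever the size of the change, 24.1% of genes were higher and 27.5% lower. In 352 genes (2.92%) the 2 groups did not overlap, 127 of them (1.06%) with every 27-month library above and 225 (1.87%) with every one below. The median change over all genes was 0.00.

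Most libraries of 27 months had a low value of a score along which diaphragm libraries differ. The score was the mean log2 CPM of 50 genes, learned on the diaphragms of the 5 ages outside the comparison as the leading axis along which libraries of one age differ, and lay between 5.69 and 5.93 at 6 months and between 4.44 and 5.83 at 27 months. In 9 of the 12 libraries of 27 months the score was below 5.54, the lowest value at 6, 9, 12, 21 or 24 months. At 18 months 4 of 12 libraries were below it too, and 1 of them, at 3.57, was lower than every library of 27 months. The 3 libraries of 27 months that were not below it were replicates 4, 5 and 6. Alternatives with the score as a covariate, and with these 3 libraries as the only ones of 27 months, were chosen after the data had been seen, and their values are given beside many of the results below. Rises were 366 (3.04%) and 379 (3.07%) under the 2 alternatives, while falls were 248 (2.06%) and 208 (1.68%).

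Subunit genes of the acetylcholine receptor rose in the old diaphragm. Of 18 tested genes for its subunits and for the proteins that organise the junction, 4 rose and none fell, with 5 lower at an unadjusted p under 0.05 and none called by edgeR's quasi-likelihood test or DESeq2. Their median change was 0.13. Chrnd, the delta subunit, ran from 4.11 to 4.69 (median 4.36) at 6 months and from 5.41 to 7.15 (median 6.12) at 27 months. Every old library was above every young one, and the change was 1.83 ± 0.17 (limma-voom, adjusted p = 4.2e-15). Chrng, the gamma subunit of the fetal receptor, had 4 to 50 counts per library at 6 months and 82 to 1089 at 27 months. On the log2 scale its level went from -2.13 to 0.58 (median -0.98) in the young and from 1.18 to 4.52 (median 2.85) in the old diaphragm, again with no overlap, and it rose by 3.68 ± 0.52 (limma-voom, adjusted p = 1.6e-08). Chrna1, the alpha subunit that binds acetylcholine, was at 4.05 to 5.22 (median 4.52) and at 4.57 to 7.72 (median 5.74). The groups overlapped, with 8 of 12 old libraries above the highest young one, and the rise was 1.29 ± 0.2 (limma-voom, adjusted p = 2.4e-07). In a bulk sample, a change in the number of cells of a type and a change in RNA per cell cannot be told apart.

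Musk, the receptor tyrosine kinase that clusters the receptor, rose by 0.84 ± 0.13 (limma-voom, adjusted p = 3.2e-07), from 3.14 to 3.79 (median 3.48) to 3.26 to 5.04 (median 4.24). Chrnb1, the beta subunit, was higher in each old library (5.84 to 6.35) than in any young one (5.3 to 5.74), but its change of 0.54 ± 0.06 was short of 1.5-fold. Chrne, the epsilon subunit that replaces gamma in the adult receptor, changed by 0.28 and was not called. The change of Ache, the esterase that breaks down acetylcholine, was -0.54 ± 0.09, under 1.5-fold, and reached -0.71 with the score as a covariate and -0.68 with the 3 libraries, where it was called. All 4 rises were also called in both alternatives, Chrnd at 1.86 and 2.26 and Chrng at 4.01 and 4.32.

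The stretches before the starts of the 3 subunit genes that rose are shown because muscle regulatory factors of the MyoD family bind E-boxes. They are the 250 bases upstream of the RefSeq start in the rat build GRCr8, a later build than the one the counts were made on, each written 5′ to 3′ on the strand of the gene. Capitals mark CAGCTG or CACCTG on either strand, so CAGGTG is the second form read on the other strand. Chrna1 is from chr3:78877354-78877603 (minus strand), Chrnd from chr9:95310066-95310315 (plus strand) and Chrng from chr9:95325734-95325983 (plus strand).
Chrna1: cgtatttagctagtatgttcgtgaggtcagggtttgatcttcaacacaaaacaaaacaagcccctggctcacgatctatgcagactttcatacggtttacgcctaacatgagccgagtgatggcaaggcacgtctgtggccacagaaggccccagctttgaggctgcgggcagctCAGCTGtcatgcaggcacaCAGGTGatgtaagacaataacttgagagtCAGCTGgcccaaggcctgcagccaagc
Chrnd: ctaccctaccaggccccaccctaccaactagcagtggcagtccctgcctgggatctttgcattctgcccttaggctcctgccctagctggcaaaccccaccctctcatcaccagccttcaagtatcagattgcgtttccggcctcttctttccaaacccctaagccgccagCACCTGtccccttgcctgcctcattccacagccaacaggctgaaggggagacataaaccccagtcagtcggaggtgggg
Chrng: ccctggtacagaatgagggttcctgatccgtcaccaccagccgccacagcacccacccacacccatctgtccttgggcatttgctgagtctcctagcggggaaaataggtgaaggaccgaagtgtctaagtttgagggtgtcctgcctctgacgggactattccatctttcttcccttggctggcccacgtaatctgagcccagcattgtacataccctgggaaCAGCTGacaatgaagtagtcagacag
Chrna1 held 3 matches, at 75, 56 and 27 bases before the start, Chrnd 1 at 79 bases and Chrng 1 at 26 bases. Chrnb1 held 2, and Chrne and Musk 1 each. Of 33469 rat promoter stretches of the same length, 25.8% held at least 1 match and 4.5% at least 2, and a match is a description of the letters, not of binding.

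Genes that muscle switches on after denervation were the list with the largest share of rises among those of 10 or more tested genes. Of 16 tested, 10 rose and none fell (1 lower at an unadjusted p under 0.05; none by edgeR or DESeq2), and the median change was 1.03. Dach2 and Gdf5 of the list were not used here. Rises were 9 with the score as a covariate and 10 with the 3 libraries. Runx1, a transcription factor that limits wasting of denervated fibres, was at 2.66 to 4.34 (median 2.97) at 6 months and at 3.51 to 6.52 (median 4.47) at 27 months, a rise of 1.77 ± 0.26 (limma-voom, adjusted p = 4.9e-08). A single young library at the top of the 6-month range overlapped with the old ones. Hdac4, the histone deacetylase that relays loss of nerve activity to muscle genes, lay between 4.86 and 5.38 (median 5.16) and between 5.65 and 6.76 (median 5.84). It did not overlap and rose by 1.0 ± 0.1 (limma-voom, adjusted p = 1.1e-13). Cdkn1a, which encodes the cell cycle inhibitor p21, went from a median of 5.65 (range 5.18 to 6.01) to one of 7.0 (range 6.15 to 8.42), with no overlap and a rise of 1.6 ± 0.15 (limma-voom, adjusted p = 4.6e-14).

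A further 6 rises of this list were smaller or less even. Sln, sarcolipin, an inhibitor of the calcium pump of the sarcoplasmic reticulum, rose by 1.08 ± 0.13, with 11 of 12 old libraries above the young range. Bex1, a small adaptor expressed in regenerating muscle, rose by 1.05 ± 0.14, also with 11 of 12 above. Ncam1, an adhesion molecule that spreads over denervated fibres, rose by 0.73 ± 0.11, and Myog, the myogenic factor myogenin, by 1.05 ± 0.2. Gadd45a, a stress gene induced downstream of Hdac4 in denervated muscle, rose by 1.25 ± 0.22, and the titin-binding repeat protein gene Ankrd1 by 1.14 ± 0.45 (limma-voom, adjusted p = 0.03). Ankrd1 was not called with the score as a covariate (1.14). The myogenic factors Myod1 (0.43) and Myf6 (-0.03), Hdac9 (-0.29), Csrp3 (0.05), Mustn1 (-0.01) and Trim72 (0.28) were not called.

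**Figure D1:**
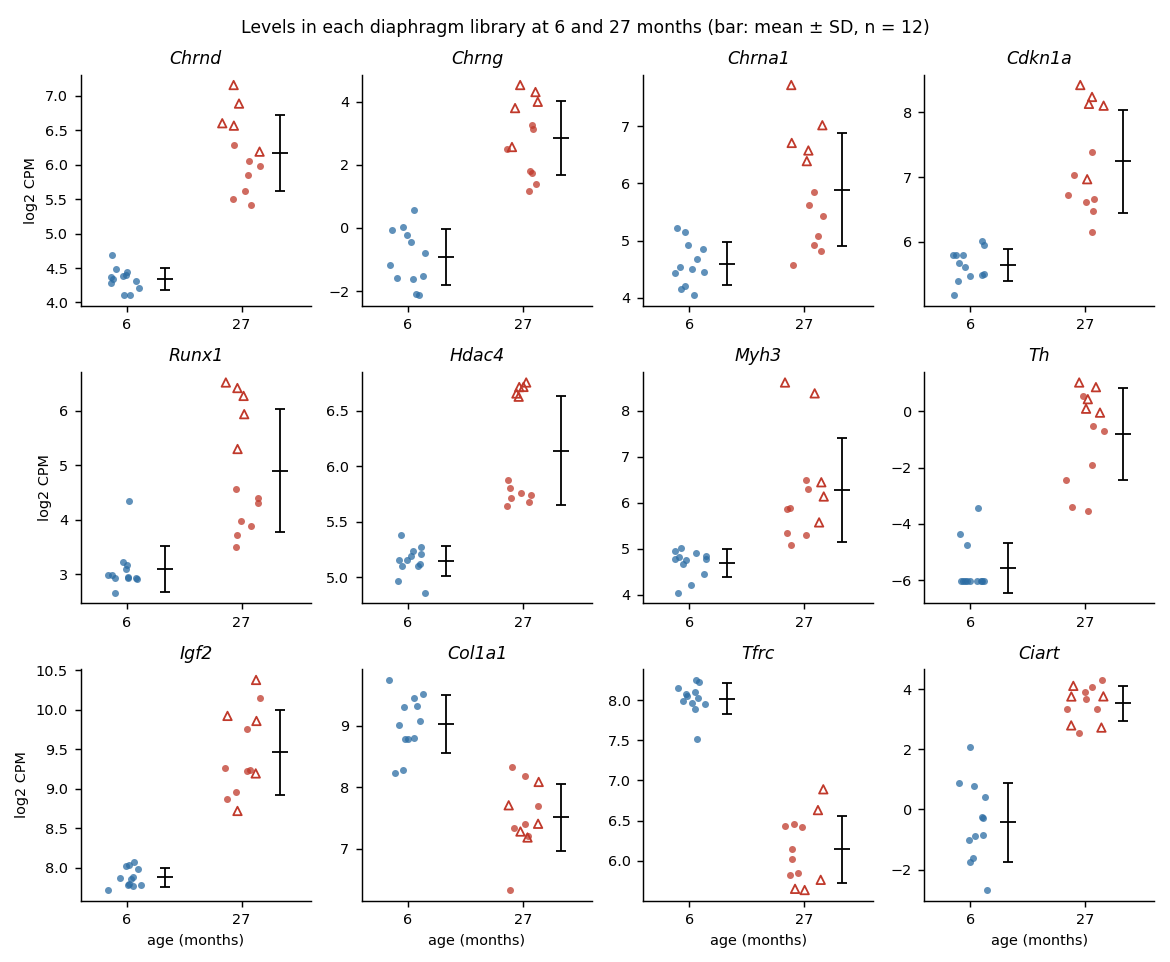
Levels (log2 CPM) of 12 genes in each diaphragm library at 6 months (blue) and 27 months (red), with the mean ± SD (n = 12) beside each group. Open triangles are replicates 0, 5, 6, 8 and 11 of 27 months, which hold the 5 highest values of Hdac4, Runx1 and Chrna1, while Col1a1, Tfrc and Ciart do not divide the old libraries in this way.

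The old libraries were not alike in these genes. Hdac4 was between 6.63 and 6.76 in replicates 0, 5, 6, 8 and 11 and between 5.65 and 5.88 in the other 7, both above the young range. The same 5 libraries held the 5 highest values of Runx1, at 5.30 to 6.52 against 3.51 to 4.56 in the other 7. They also held the 5 highest values of Chrna1, Musk, Ncam1, Gadd45a, Myog and Mybph. For Gadd45a and Myog none of the other 7 libraries was above the highest young one, replicate 0 of 6 months (4.99 and 5.12), while 6 of the 7 were above each of the other 11 young libraries. Chrnd, Chrng, Cdkn1a and Th shared 4 of the 5. Over all 12035 genes, 106 (0.881%) had their 5 highest values of 27 months in exactly these libraries and 29 of the 106 had risen. In the denervation list this held for 7 of 16 genes, in the receptor and junction list for 3 of 18, among cytosolic ribosomal proteins for 6 of 78, among developmental sarcomere genes for 1 of 10, and in the nerve, T cell, macrophage, collagen, clock and complex I lists for none. These 5 libraries were singled out by their Hdac4 values, so Hdac4 is among the 7, the 106 and the 29 by that rule. The levels in these libraries are a description. Replicates 5 and 6 are also among the 3 libraries with the higher scores, and the fitted changes of Runx1 (2.44) and Chrna1 (2.0) in that alternative rest in part on them.

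Sarcomere genes of developing muscle rose in part. Of 10 tested, 5 rose and none fell (1 lower at an unadjusted p under 0.05; none by edgeR or DESeq2), with a median change of 0.75. With the score as a covariate 5 rose and 1 fell, and with the 3 libraries 6 rose. Myh3, the embryonic myosin heavy chain, ran from 4.05 to 5.01 (median 4.78) in young and from 5.07 to 8.62 (median 6.01) in old diaphragm, did not overlap, and rose by 1.6 ± 0.23 (limma-voom, adjusted p = 3.0e-08). Actc1, the cardiac actin of fetal muscle, was at 4.09 to 5.81 (median 4.94) and 5.43 to 7.4 (median 5.88), with 6 of 12 old libraries above the young range and a rise of 1.26 ± 0.26 (limma-voom, adjusted p = 3.2e-05). Myl4, the embryonic light chain, rose by 2.33 ± 0.61, the myosin-binding protein gene Mybph by 1.95 ± 0.45, and the cardiac troponin T gene Tnnt2 by 0.94 ± 0.27. Myh8, the perinatal myosin, changed by 0.17 and was not called.

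Few adult fibre genes were called. None of the 10 slow fibre genes was called in either direction by limma-voom, edgeR or DESeq2 (6 higher and 1 lower at an unadjusted p under 0.05), and 1 of 13 fast fibre genes rose. That gene was Myh4, the fastest myosin of rat muscle, which ran from 8.15 to 13.08 (median 10.38) at 6 months and from 10.16 to 13.34 (median 12.48) at 27 months. The ranges overlapped almost wholly, the rise was 1.37 ± 0.48 (limma-voom, adjusted p = 0.014), and with the 3 libraries it was 0.59 and not called. The changes of Myh7 (0.29), Myh1 (-0.3) and Myh2 (-0.14) were under 1.5-fold. None of 15 genes for ubiquitin ligases of atrophy and the Foxo factors that drive them was called by limma-voom, edgeR or DESeq2, with 6 higher and 4 lower at an unadjusted p under 0.05. Trim63, the ligase MuRF1, changed by 0.38 ± 0.11, and Fbxo32, atrogin-1, by -0.13 ± 0.09.

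Transcripts of nerve cells were few, and most of those that passed the count filter were higher at 27 months. Of 9 tested, 7 rose and none fell (1 lower at an unadjusted p under 0.05; none by edgeR or DESeq2), and the median change was 1.12. Rises were 6 with the score as a covariate and 5 with the 3 libraries. Snap25, Syt1, Chat, Slc18a3, Scg2 and Chga of the list did not pass the filter. Th and Nefl were under the minimum count of 10 in every young library, and Nefh had a median of 5.5 there, so libraries of other ages let them pass. The count of rises and the median therefore describe the genes that passed and are no test of the list. Th, tyrosine hydroxylase, which makes catecholamines in sympathetic nerves, had 0 to 2 counts in a young library, with 9 of 12 at 0, and 3 to 111 (median 30) in an old one. All but 1 of the old libraries were above the young range. The fitted rise of Th was 4.5 ± 0.64 (limma-voom, adjusted p = 1.7e-08), and its size depends on the prior count of 0.5 because the young libraries are at or near 0. Nefl, the neurofilament light chain of axons, had 0 to 9 counts at 6 months and 6 to 44 at 27 months and rose by 2.25 ± 0.4 (limma-voom, adjusted p = 2.7e-06). The medium chain Nefm rose by 1.29 ± 0.25, with 11 of 12 old libraries above the young range, and the heavy chain Nefh by 1.12 ± 0.34. Uchl1, a neuronal ubiquitin hydrolase, rose by 0.81, Stmn2, a tubulin-binding protein of growing axons, by 1.12, and the neuronal tubulin Tubb3 by 0.72. Prph (-0.32) and the growth cone gene Gap43 (0.35) were not called. Of 16 Schwann cell and myelin genes 1 rose, Gldn (0.71), which clusters sodium channels at nodes, and the median change was -0.17. With the score as a covariate 1 rose and 4 fell.

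**Figure D2:**
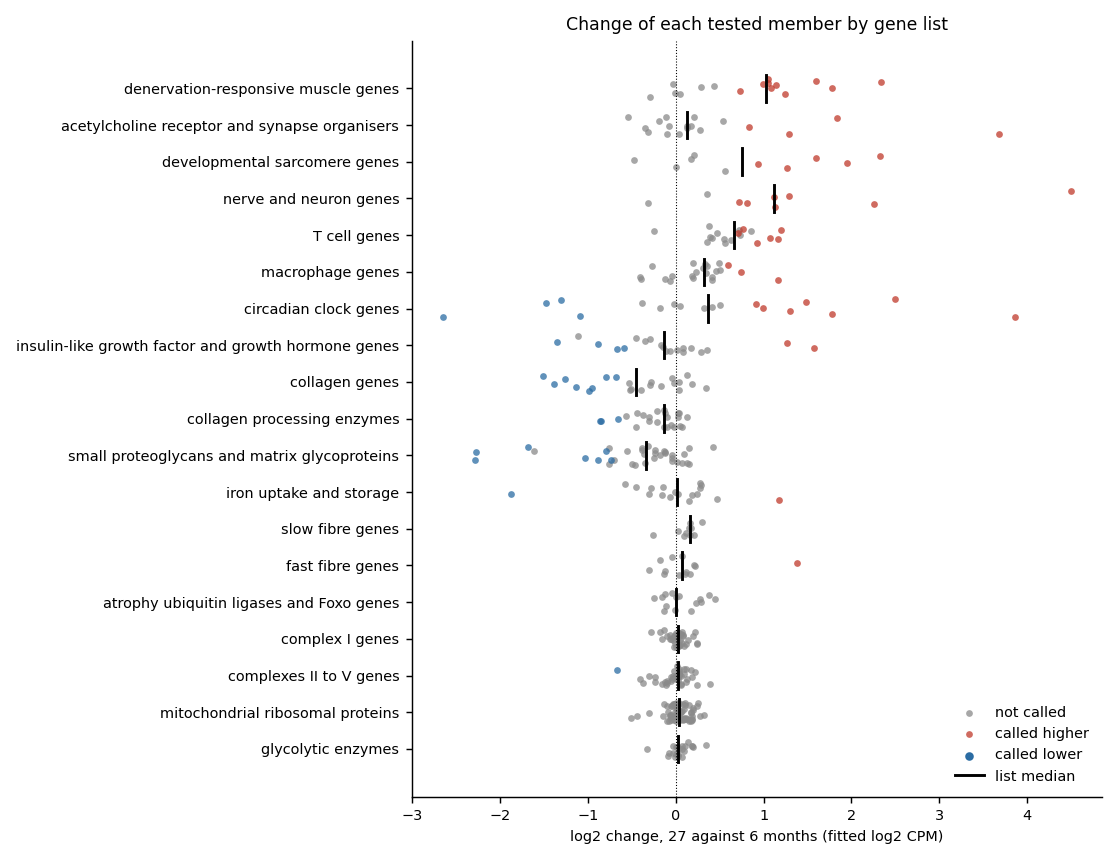
Fitted log2 change (27 against 6 months, horizontal axis) of every tested member of 19 gene lists, with called rises in red, called falls in blue, genes not called in grey and the list median as a black bar. Members of the denervation and nerve lists lie mostly above 0, collagens mostly below 0, and the mitochondrial and glycolytic lists close to 0.

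The collagens held more falls than any other list. Of 22 tested collagen genes, 8 fell and none rose (1 higher at an unadjusted p under 0.05; none by edgeR or DESeq2), with a median change of -0.45. There were 10 falls with the score as a covariate and 10 with the 3 libraries, where 1 collagen gene also rose, and the changes of Col1a1 (-1.75 and -1.82) and Col3a1 (-1.46 and -1.58) were larger there. The summed level of the list was 2441 to 4217 CPM (median 3014) at 6 months and 1108 to 2461 (median 1739) at 27 months. Col1a1, a chain of type I collagen, ran from 8.23 to 9.74 (median 9.04) in young and from 6.33 to 8.34 (median 7.4) in old diaphragm. In 11 of 12 old libraries it was below the lowest young one, and it fell by 1.51 ± 0.17 on the log2 scale (limma-voom, adjusted p = 4.1e-11). Col3a1, the chain of type III collagen, was at 9.02 to 9.98 (median 9.54) and at 7.16 to 8.78 (median 8.32), with no overlap and a change of -1.26 ± 0.12 (limma-voom, adjusted p = 1.5e-13). Col5a3, a chain of the type V collagen that sets fibril width, went from 4.87 to 5.38 (median 5.0) to 2.48 to 4.18 (median 3.89). It did not overlap, and its change was -1.39 ± 0.12 (limma-voom, adjusted p = 1.0e-15). Col1a2 (-1.13), Col5a2 (-0.79), Col11a1 (-0.99), Col11a2 (-0.96) and the transmembrane collagen Col17a1 (-0.68) also fell. Col4a1, of basement membrane, changed by -0.52, short of 1.5-fold.

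Genes that process and surround collagen moved the same way in smaller numbers. Of 24 collagen processing genes, 3 fell and none rose (1 higher at an unadjusted p under 0.05; none by edgeR or DESeq2). They were the collagen-binding glycoprotein Sparc, at 8.91 to 9.44 (median 9.22) and 8.11 to 8.93 (median 8.61) and a change of -0.66 ± 0.07 (limma-voom, adjusted p = 7.8e-13), and the crosslinking oxidases Loxl2 (-0.85) and Lox (-0.86). Of 36 small proteoglycans and matrix glycoproteins, 7 fell, but only 2 with the score as a covariate and 3 with the 3 libraries. Ogn, the small proteoglycan mimecan, changed by -1.04, by -0.44 with the score and by -0.37 with the 3 libraries, and Lum, lumican, by -0.73, -0.35 and -0.5. Kera (-2.28), Tnmd (-1.69) and Cilp2 (-2.28), genes of tendon and cartilage, fell with the widest errors (SE 0.72, 0.54 and 0.72), and in each the lowest young library, replicate 3, lay well within the old range (-0.47, -1.63 and -2.38). The summed level of the 11 tendon and cartilage genes was 245.3 to 1102 CPM (median 797.9) at 6 months and 262 to 1087 (median 587) at 27 months, and of the 3 falls 1 was called with the score as a covariate, Cilp2, and none with the 3 libraries. The part of tendon in the tissue taken was not tested. Among 22 matrix proteases and inhibitors, the membrane protease gene Mmp14 (-0.64) and the aggrecanase gene Adamts4 (-1.16) fell and Mmp9 (1.74) and Mmp11 (0.77) rose. Adamts12, a protease gene outside the list, ran from 5.03 to 5.66 (median 5.22) and from 3.81 to 4.57 (median 4.1), with no overlap and a change of -1.08 ± 0.08 (limma-voom, adjusted p = 1.7e-18). Of 17 fibroblast genes, 3 fell, Dpp4 (-0.91), Lum and Pdgfrl (-0.82), and their summed level was 2235 to 2765 CPM at 6 months and 1652 to 2354 at 27 months. Whether fewer fibroblasts go with the lower collagen was not tested.

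The circadian clock stood out by the size of its changes in both directions. Of 18 tested clock genes, 7 rose and 4 fell, and in 9 of these 11 the ages did not overlap. With the score as a covariate 8 rose and 4 fell, and with the 3 libraries 6 rose and 4 fell. Among the outputs that the Clock and Bmal1 proteins drive, Dbp, a transcription factor of the PAR family, went from 3.54 to 5.52 (median 4.46) to 6.1 to 7.55 (median 7.01), a rise of 2.49 ± 0.28 (limma-voom, adjusted p = 1.9e-11). Ciart, a repressor of the clock, had 4 to 104 counts per library in the young and 243 to 791 in the old diaphragm and rose by 3.86 ± 0.81 (limma-voom, adjusted p = 5.6e-05). Neither gene overlapped between the ages. The 3 Period genes, which close the negative loop, rose together, Per1 by 1.3, Per2 by 1.78 and Per3 by 1.48. Per2 was at 4.79 to 6.17 (median 5.58) and 6.72 to 7.68 (median 7.39), while Per1 was not called with the 3 libraries (0.87). Tef (0.99), another PAR factor, and the deubiquitinase gene Usp2 (0.91) rose with no overlap.

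The positive arm of the clock went the other way. Arntl, which encodes Bmal1, ran from 5.27 to 6.23 (median 5.81) at 6 months and from 2.55 to 4.06 (median 3.11) at 27 months, a change of -2.65 ± 0.26 (limma-voom, adjusted p = 6.5e-14). Clock, its partner, was at 7.86 to 8.17 (median 8.02) and 6.36 to 7.47 (median 6.62), a change of -1.31 ± 0.1 (limma-voom, adjusted p = 2.3e-17), which was -0.85 with the score as a covariate. Both lay below the young range in every old library. Npas2 (-1.47), which can stand in for Clock, and Nfil3 (-1.09), a repressor opposed to Dbp, fell as well. The receptor Nr1d1 (-0.18), Cry1 (-0.38) and Cry2 (0.5) were not called. The hour at which each rat was sampled is not given in the labels, and age, day and hour cannot be told apart in these genes. Of 20 immediate early genes 1 fell, Fosb (-0.96), and of 12 glucocorticoid-induced genes 2 rose, Per1 and Mt1a.

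Ciart is the clock gene whose upstream letters are shown, since Clock and Bmal1 bind the E-box CACGTG and Ciart had the largest rise of the list. The stretch is chr2:186112247-186112496 (minus strand, RefSeq, GRCr8), with CACGTG in capitals, a motif that reads the same on both strands.
Ciart: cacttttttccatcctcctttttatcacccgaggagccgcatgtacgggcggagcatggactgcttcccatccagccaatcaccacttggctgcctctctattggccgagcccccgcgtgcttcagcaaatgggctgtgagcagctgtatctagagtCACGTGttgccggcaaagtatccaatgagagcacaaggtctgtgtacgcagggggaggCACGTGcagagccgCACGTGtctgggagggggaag
It held 3 matches, at 93, 35 and 21 bases before the start, where 5.59% of the 33469 stretches held at least 1 and 0.43% at least 2. Tef held 1. No match was found in the same window of Per1, Per2, Per3, Dbp, Usp2, Arntl, Clock, Npas2 or Nfil3.

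Of 20 genes of insulin-like growth factor and growth hormone signalling, 2 rose and 4 fell. Igf2, the fetal growth factor, was at 7.72 to 8.07 (median 7.87) at 6 months and at 8.72 to 10.38 (median 9.25) at 27 months. The groups were far apart, and the rise of 1.58 ± 0.11 (limma-voom, adjusted p = 2.4e-20) was 1.65 and 1.95 in the alternatives. H19, the imprinted noncoding RNA next to Igf2, ran from 11.82 to 12.59 (median 12.21) and from 12.98 to 14.05 (median 13.33), a rise of 1.26 ± 0.12 (limma-voom, adjusted p = 1.6e-14). Igf2bp2, which binds Igf2 messenger RNA, was at 1.51 to 3.99 (median 2.17) and 0.29 to 1.48 (median 0.96) and changed by -1.35 ± 0.17 (limma-voom, adjusted p = 6.6e-10), with no overlap. Irs1, the insulin receptor substrate, fell by 0.88 with no overlap. Igf1 (-0.67) and the growth hormone receptor gene Ghr (-0.59) fell too, but with the score as a covariate were at -0.32 and -0.21 and not called.

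Tfrc, the transferrin receptor that takes up iron, had the smallest p of all falls. It ran from 7.52 to 8.25 (median 8.04) in young and from 5.64 to 6.89 (median 6.08) in old diaphragm, with no overlap and a change of -1.88 ± 0.11 (limma-voom, adjusted p = 2.0e-23). In the alternatives it was -1.43 and -1.37 and still called. Hmox1, which frees iron from haem, rose by 1.17 ± 0.16, and these were the only 2 of 18 iron genes called. The ferritin light chain gene Ftl1 changed by 0.47 and the heavy chain gene Fth1 by -0.14, neither over 1.5-fold.

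The metallothionein genes Mt1a and Mt2A, which bind zinc and copper, rose, though not beyond the young range in all old libraries. Mt1a was at 0.72 to 3.25 (median 1.5) and 2.5 to 5.42 (median 3.47), with 8 of 12 old libraries above the young range and a rise of 2.39 ± 0.33 (limma-voom, adjusted p = 1.0e-08). Mt2A rose by 1.4 ± 0.37, with 3 of 12 above. Both genes had their 5 highest old values in replicates 0, 5, 6, 8 and 11. Of the 10 tested metallothioneins and zinc transporters, 3 rose and 1 fell, the others being the transporters Slc30a2 (0.59) and Slc39a10 (-0.7), while both alternatives gave 2 rises and no fall. The 250 bases before the RefSeq start of Mt1a (listed there as Mt1) are at chr19:10832976-10833225 (minus strand, GRCr8) and are shown with TGCNCNC on either strand in capitals. This is a looser form of the metal response core TGCRCNC, in which R is A or G.
Mt1a: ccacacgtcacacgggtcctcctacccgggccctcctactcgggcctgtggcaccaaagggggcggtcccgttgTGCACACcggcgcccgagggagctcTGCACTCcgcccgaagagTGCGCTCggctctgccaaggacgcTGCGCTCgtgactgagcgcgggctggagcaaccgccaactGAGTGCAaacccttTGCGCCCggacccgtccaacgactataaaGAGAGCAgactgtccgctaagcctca
They held 7 matches to the looser form and those of Mt2A 5, where 43.4% of all stretches held at least 1 and 14.4% at least 2. GAGAGCA in Mt1a reads TGCTCTC on the other strand and GAGGGCA in Mt2A reads TGCCCTC, so these match the looser form only.

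Genes of immune cells rose in small numbers. Of 18 T cell genes 6 rose, with a median change of 0.67. Rises were 8 by edgeR and 10 by DESeq2, but 2 with the score as a covariate and 1 with the 3 libraries. The limma-voom rises are named here. These 6 were the receptor chain genes Cd3g (1.17) and Cd247 (1.07), the adhesion molecule gene Cd2 (0.71), the signalling kinase genes Lck (0.77) and Zap70 (0.92), and the granzyme gene Gzmb (1.2). Cd3g had 0 to 11 counts (median 3) in a young library and 4 to 23 (median 9.5) in an old one. Libraries of other ages than 6 months let it pass the filter, and Cd3d and Gzma did not pass. The count of T cell rises and the median therefore describe the genes that passed and are no test of the list. The summed level of the list was low at both ages, 22.79 to 34.06 CPM (median 26.91) and 27.43 to 59.57 CPM (median 42.41), and the ranges overlapped. Of 22 macrophage genes 3 rose, the lysosomal glycoprotein gene Gpnmb (1.17), the inhibitory Fc receptor gene Fcgr2b (0.74) and the integrin gene Itgam (0.59), with a median of 0.32, summed levels of 310.6 to 786.9 CPM and 484.5 to 1197 CPM, and Marco at 0 in all 24 libraries. Macrophage rises were 3 in both alternatives. Of 42 interferon-stimulated genes 2 rose and 2 fell, and Ifit2, an RNA-binding member, fell by 1.18 ± 0.13 with no overlap. Neither rise was called in either alternative, and the 1 fall called in each was Ifit2. Complement gave 1 rise of 22, C4b (0.75), class I presentation 1 of 18, RT1-CE5 (0.63), and class II presentation 1 fall of 11, RT1-DOa (-0.91). Beside these counts, 3.27% of all genes rose and 4.25% fell. The class II fall was not called by edgeR or DESeq2, which each called 2 rises in that list, nor with the 3 libraries.

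Few genes of energy metabolism were called. Of 35 complex I genes, 68 mitochondrial ribosomal proteins and 22 glycolytic enzymes none was called by limma-voom, edgeR or DESeq2, with medians of 0.02, 0.03 and 0.03. At an unadjusted p under 0.05, 8 complex I genes were higher and 4 lower, 19 and 7 mitochondrial ribosomal proteins, and 5 and 1 glycolytic enzymes. The 1 fall among 41 genes of complexes II to V was Cycs, cytochrome c, at 10.32 to 10.57 (median 10.45) and 9.38 to 10.31 (median 9.81), a change of -0.67 that was -0.26 with the score as a covariate. The 1 fall among 23 citric acid cycle enzymes was Sucla2 (-0.61, with the score -0.11). Fatty acid genes gave 2 rises of 32, Cpt1a (0.64), which admits fatty acids to mitochondria, and the uncoupling protein gene Ucp2 (0.9), and 1 fall, Ucp3 (-1.2), which was 0.03 with the 3 libraries. Among 28 genes of lipid synthesis and droplets, Pnpla3, a lipid droplet enzyme, changed by -1.99 ± 0.23 and G0s2, an inhibitor of lipolysis, by -1.08 ± 0.24. Cytosolic ribosomal proteins were shifted by a small amount: 67 of 78 had a positive change, the median was 0.15, and 1 rose, Rpl37a (0.85).

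Among other genes with small p, those that rose were the cytoplasmic polyadenylation factor gene Cpeb1 (1.56), the endoplasmic reticulum stress gene Herpud1 (0.77), the cholesterol exporter gene Abca1 (0.76) and the neurotensin receptor gene Ntsr1 (1.69). None of the 4 overlapped between the ages. Flrt1 (2.11), a cell adhesion protein gene, and Abcb1b (1.65), an efflux pump gene, were among the largest rises. Those that fell with no overlap included the magnesium transporter gene Slc41a3 (-1.49), the kinase gene Dyrk2 (-1.4), the semaphorin and growth factor coreceptor gene Nrp1 (-0.72), Sh3bp5 (-0.83) and the integrin gene Itga1 (-0.62), the last not called in either alternative. Among 18 senescence and cell cycle inhibitor genes, Cdkn1a, Cdkn1c (0.59), Cdkn2b (1.11) and the p53 target Phlda3 (0.69) rose, and none fell (4 lower at an unadjusted p under 0.05; none by edgeR or DESeq2). Of 27 genes of myostatin and activin signalling 1 rose, the bone morphogenetic protein gene Bmp7 (1.16 ± 0.17).

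The falls as a group were smaller in the alternatives on the library score. Of the 512 falls, 37 are genes of the score itself, which restate it. Smc3, a cohesin subunit that is not one of them, was at 5.88 to 6.07 at 6 months and at 4.26 to 5.91 at 27 months, and its change of -0.85 was -0.21 with the score as a covariate and -0.13 with the 3 libraries. Smc3 was the gene used to set the direction of the axis, so its values describe the score and are no independent check of it. Eea1 (-1.09), an endosome tether, and Matr3 (-0.67), a nuclear matrix protein, also outside the score, were at -0.28 and -0.07 with the 3 libraries. Of the 512 falls, 154 were still called with the score as a covariate and 126 with the 3 libraries, and the median of the 512 went from -0.75 to -0.36 and -0.39. Of the 393 rises, 280 and 253 were still called, and their median of 0.90 was 0.91 and 0.93. The part of RNA quality or tissue handling in the score was not tested. The share of counts on ribosomal RNA genes had medians of 0.233% at 6 months and 0.304% at 27 months.

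**Figure D3:**
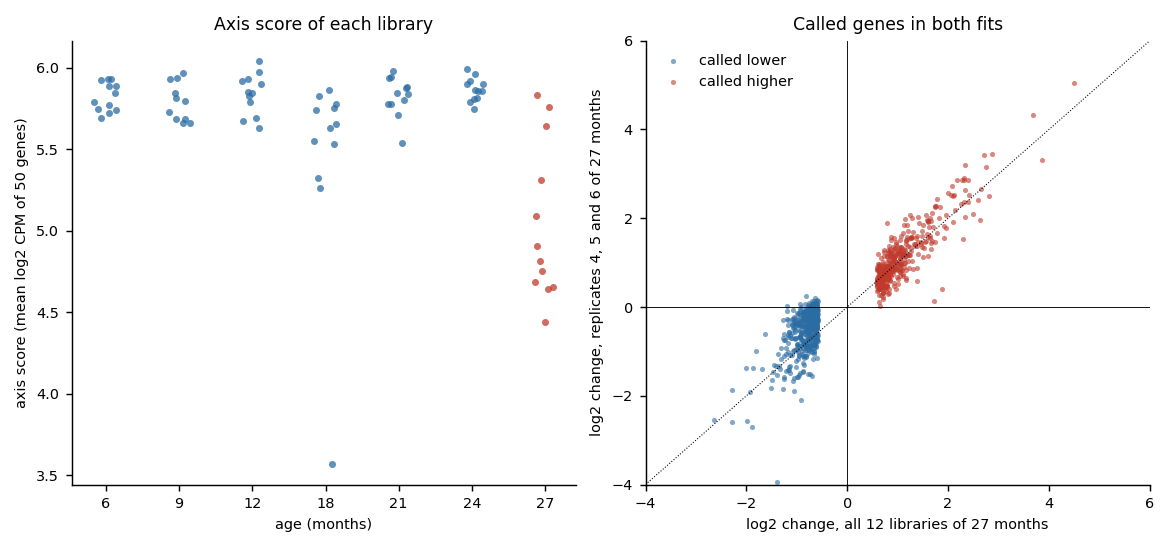
Left, the score (mean log2 CPM of the 50 genes) of each diaphragm library by age in months, with 27 months in red. Right, the log2 change of each called gene with all 12 libraries of 27 months (horizontal) and with replicates 4, 5 and 6 only (vertical): rises (red) lie about the dotted line of equal change, while many falls (blue) lie near 0 on the vertical axis.

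The other ages, each compared with the same 12 libraries of 6 months, show when the old values were reached. Of 22 collagen genes 5 fell at 12 months, 5 at 18, 5 at 21 and 3 at 24, against 8 at 27. Col1a1 was at -0.93 at 12 months and -1.45 at 21 months against -1.51 at 27, and Col3a1 at -0.61, -1.08 and -1.26, each of these a called fall. Over all genes, 0.307% rose and 0.224% fell at 12 months, 1.62% and 0.631% at 18, 1.12% and 0.557% at 21, and 2.19% and 0.499% at 24. Nefl was called from 12 months (1.48) and H19 from 18 months (0.69). Tfrc was at -1.16 at 18 months, -1.05 at 24 and -1.88 at 27. Dbp was already at 1.28 at 9 months, and is 1 of 13 genes called then (9 higher, 0.0748%, and 4 lower, 0.0332%).

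Of 18 receptor and junction genes 1 rose at 18 months, 1 at 21 and 2 at 24, against 4 at 27, and of 16 denervation genes 1 at 18 and 3 at 24, against 10. Hdac4 was at 0.24 at 24 months and 1.0 at 27, and Chrna1 at 0.09 and 1.29, and neither was called at any age from 9 to 24 months. Chrnd was called from 18 months, at 0.94, 0.8 and 0.86 before 1.83. Chrng (2.07), Runx1 (1.05) and Th (2.63) were called at 24 months. Among clock genes, Arntl was at -1.07 at 24 months and -2.65 at 27, and Clock at -0.25 and -1.31. Igf2 was at 0.41, 0.58, 0.67 and 0.86 from 12 to 24 months before 1.58, and was called from 21 months. The step from 24 to 27 months was not tested on its own.

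**Figure D4:**
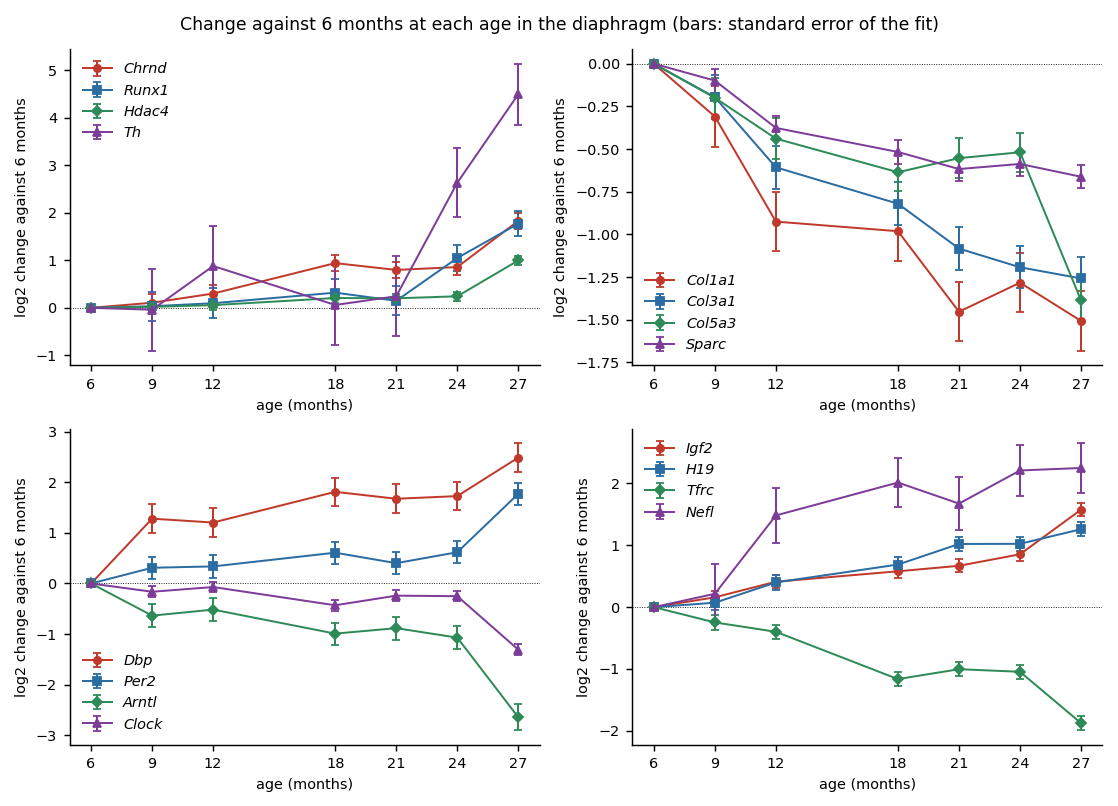
Fitted log2 change against 6 months (vertical axis, ± standard error of the fit) of 16 genes at each age in months (horizontal axis), in 4 panels for denervation, matrix, clock and growth or iron genes. Col1a1 and Col3a1 are below -0.6 from 12 months on, while Hdac4, Clock and Arntl make their largest step at 27 months.

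The change in the diaphragm was set against that in the limb muscles by a test of the difference between changes over all 325 libraries and 12784 genes (limma-voom, adjusted p under 0.05 and a difference over 1.5-fold). The labels do not tie libraries of different muscles to an animal. Muscles were therefore treated as independent, and any sharing of rats between them was not modelled. It differed from the gastrocnemius in 2760 genes (21.6%), from the soleus in 1516 (11.9%) and from the tibialis anterior in 2590 (20.3%). The library identifiers in the labels of the gastrocnemius lie in a number range of their own, and the labels do not say whether this marks a batch. Denervation genes rose less in the diaphragm: their median change was 1.07, against 2.56, 2.14 and 3.27 in the gastrocnemius, soleus and tibialis anterior, and 14, 9 and 14 of the 16 had a lower change in the diaphragm by the test, beside 13.8%, 6.3% and 13.3% of all genes. Sln changed by 1.12 in the diaphragm, 5.50 in the gastrocnemius and 6.58 in the tibialis anterior. Chrnd, at 1.87, was below the gastrocnemius (3.33) and the tibialis anterior (4.83), and was not called different from the soleus (1.55, difference 0.32 ± 0.25).

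Col3a1 and Ciart changed further in the diaphragm than in limb muscles. Col3a1 was at -1.21 in the diaphragm and at -0.13, 0.21 and -0.30 in the gastrocnemius, soleus and tibialis anterior, and all 3 differences passed the test. Col1a1, at -1.46, was lower than in the tibialis anterior (-0.55) but not called different from the gastrocnemius (-1.90) or soleus (-1.19). Complex I genes had a median change of 0.06 in the diaphragm and of -0.55, -0.50 and -0.47 in the limb muscles, with 21, 12 and 8 of 35 higher in the diaphragm by the test, beside 7.77%, 5.56% and 7% of all genes. Glycolytic enzymes were higher by the test in 15, 6 and 14 of 22. Ciart rose by 3.90 in the diaphragm and by 1.35 in the gastrocnemius and 1.40 in the soleus, where the differences passed, and by 2.25 in the tibialis anterior, where the difference was not called. Arntl was not called different from any of the 3 (-2.60 against -2.05, -2.09 and -2.16). Myh4 rose by 1.40 in the diaphragm and by 3.06 in the soleus and was at -1.28 in the gastrocnemius and -1.51 in the tibialis anterior.

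**Figure D5:**
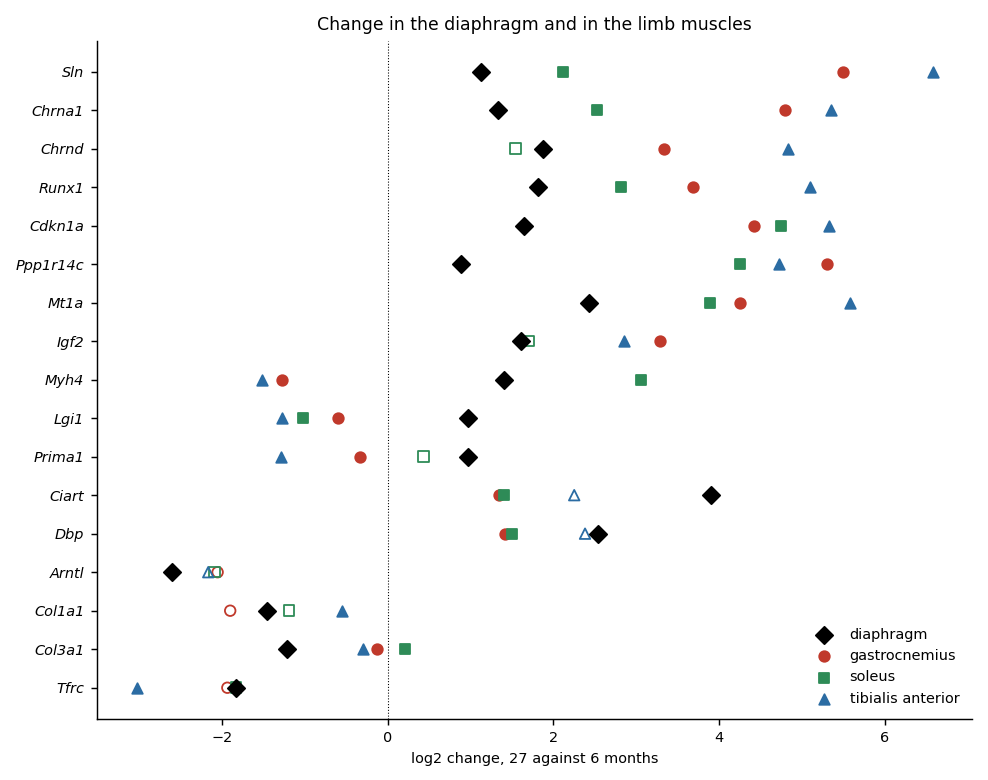
Fitted log2 change (27 against 6 months, horizontal axis) of 17 genes in the diaphragm (black diamonds), gastrocnemius (red circles), soleus (green squares) and tibialis anterior (blue triangles); a limb symbol is filled where the change differed from the diaphragm by the test and open where it was not called. For Sln, Chrna1 and Cdkn1a the diaphragm has the smallest rise of the 4 muscles.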

How the data were processed

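RNA was sequenced from rat muscle. The deposited values are unnormalized gene counts, 1 file a library, which the authors obtained with the ArrayStudio pipeline (version not given in the sources used here) on the rat B6.0 genome with an in-house RefSeq gene model, from strand-specific, ribosome-depleted libraries. Each file held 17870 gene lines and 17315 symbols. Lines of 1 symbol were summed, since 494 symbols stood on more than 1 line (2.34% of counts), 218 of them with identical counts, which leaves near-identical copies uncertain.

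Groups came from the labels. Genes were filtered by age with filterByExpr (minimum count 10, minimum total 15), scaled by TMM (edgeR 4.0.16) and fitted with limma-voom (limma 3.58.1, R 4.3.3) on all diaphragm libraries of 7 ages, with 27 against 6 months as the contrast. Benjamini-Hochberg adjustment ran over the 12035 genes tested, and log2 CPM used a prior count of 0.5. The difference from limb muscles was an interaction contrast over all 325 libraries. On simulated counts for 27 against 6 months, 98% of 2-fold and 100% of 4-fold changes among 200 changed genes were recovered, with 2 false calls in 12035 genes. The simulated libraries were independent, with the same dispersion at all ages and no shift along the library score. In the real libraries the median SD was 0.120 at 6 months and 0.162 at 27 months (genes over log2 CPM 2). The 2 false calls therefore do not measure the rate in the real data. DESeq2 1.42.0 and edgeR's quasi-likelihood test were alternatives.

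The genes named are the called members of fixed lists with the smallest p, the first listed member of each, the 12 largest rises and falls, the 6 smallest p in each direction, the largest differences from limb muscle and the 5 largest rises in spread, all with a mean log2 CPM over 1 where ranked by size. Others were named after their values were seen, and a few genes that the rule gives, counted in their lists, are not reported here. The compared libraries and the lists were chosen with earlier results of these data known. Promoter stretches came from RefSeq (GRCr8). No Y-linked genes or authors' comparisons were used.

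Replicate numbers occur in both ages, but over 12 pairs the correlation of same-numbered libraries was -0.17 to 0.33 (median 0.02), 3 were over 0.1, and the numbers were not treated as pairs.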

Additional observations from a re-analysis of the deposited data

Results flagged for a closer look

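The following results were set apart because a test of the difference between the diaphragm's change and a limb muscle's change (limma-voom interaction, Benjamini-Hochberg adjusted p under 0.05) passed, and no explanation was weighed. The number of such genes was 2760 against the gastrocnemius, 1516 against the soleus and 2590 against the tibialis anterior. The library score of the diaphragm was not part of this test. Values below are the log2 change in the diaphragm minus that in the limb muscle, so a negative value for a gene that rose means a smaller rise in the diaphragm.

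Several genes, some of them junction and denervation genes, rose less in the diaphragm than in a limb muscle. Of 18 receptor and junction genes, 6, 4 and 7 had a lower change than in the gastrocnemius, soleus and tibialis anterior. A higher change was found for 1, 1 and 2 of them. Of all genes, 13.8%, 6.3% and 13.3% were lower and 7.77%, 5.56% and 7% higher. Chrnd differed by -1.46 from the gastrocnemius and by -2.96 from the tibialis anterior, and Chrna1 by -4.02 from the tibialis anterior. Sln differed by -4.38 from the gastrocnemius and -5.45 from the tibialis anterior. Runx1 differed by -1.88 from the gastrocnemius, -1.0 from the soleus and -3.29 from the tibialis anterior. Cdkn1a differed by -3.1 from the soleus and Chrna4, a neuronal receptor subunit, by -3.55. Ppp1r14c, a phosphatase inhibitor, differed by -4.43 from the gastrocnemius and -3.37 from the soleus. Mt1a differed by -1.82 from the gastrocnemius, -1.45 from the soleus and -3.14 from the tibialis anterior, and Igf2 by -1.67 from the gastrocnemius and -1.24 from the tibialis anterior.

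Prima1, which anchors acetylcholinesterase at the membrane, was higher by 2.26 than in the tibialis anterior, where it had dropped. Lgi1, a secreted synaptic protein, was higher by 1.98 than in the soleus and 2.25 than in the tibialis anterior, and Tmem179 by 3.39 than in the soleus. Myh4 was higher by 2.68 than in the gastrocnemius and 2.92 than in the tibialis anterior, and Arrdc2 by 1.93 than in the gastrocnemius. Tfrc was at -1.83 in the diaphragm and at -1.93, -1.83 and -3.03 in the gastrocnemius, soleus and tibialis anterior. Its smaller fall differed by 1.19 from the tibialis anterior and was not called different from the gastrocnemius or soleus. Among clock genes, Ciart was higher by 2.55 than in the gastrocnemius and 2.5 than in the soleus, and Dbp by 1.12 and 1.03. Among collagens, Col3a1 differed by -1.08 from the gastrocnemius, -1.42 from the soleus and -0.92 from the tibialis anterior, and Col1a1 by -0.91 from the tibialis anterior.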

How the results depend on the processing

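The 905 called genes (393 higher, 512 lower) were 891 with RLE size factors, 877 with total-count scaling, 878 with edgeR's quasi-likelihood test, 882 with DESeq2, 1035 with no filter, 1032 with sample quality weights, 795 with only 6 and 27 months and 881 without symbols on several lines. They were 538 with the Bonferroni adjustment that the study's methods state (160 higher, 378 lower) and 248 at a 2-fold threshold (162 and 86). With the library score as a covariate 366 rose and 248 fell, and with the 3 libraries of 27 months not below the scores of 6, 9, 12, 21 and 24 months, of 587 genes 379 rose and 208 fell; the share of rises went from 43.43% to 59.61% and 64.57%, and with total-count scaling, which shifted the median of all genes to 0.04, to 50.97%. It was 65.32% at 2-fold and 29.74% with Bonferroni. Both alternatives on the score, and those without 1 library that stood apart, were chosen after the data had been seen. Without replicate 0 of 6 months 932 genes were called, and without replicate 2 of 27 months 859. Of the 182 genes that the naming rule gives, 129 kept direction and call with the score as a covariate and 124 with the 3 libraries, where Hsp90aa1 (0.067), Idi1 (0.014), Mbnl2 (0.0043), Ucp3 (0.025) and Yme1l1 (0.007) turned positive. Interaction counts under Bonferroni were 1674 for the gastrocnemius, 696 for the soleus and 1417 for the tibialis anterior. The cause was not tested.

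With the replicate number as a block, on 6 and 27 months only, 791 genes were called (341 higher, 450 lower), against 795 without the block. Only 2 of 12 libraries correlated best with the library of their own number. At 0 to 2 counts per young library, the fold change of Th is set by the prior count.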

Other observations

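Of 23 endothelial genes 18 had a negative change at 27 months and 1 fell by the test, the apelin receptor gene Aplnr (5.39 to 6.3 at 6 months, 4.68 to 5.49 at 27 months, change -0.85 ± 0.1), and their summed level was 1479 to 1745 CPM (median 1620) at 6 months and 1329 to 1543 CPM (median 1397) at 27 months. Of 14 smooth muscle and pericyte genes 1 fell, the pericyte gene Rgs5 (-0.83), which did not overlap between the ages but was at -0.47 with the library score as a covariate and not called. Of 28 voltage-gated channel genes 2 fell, the calcium channel gene Cacna1g (-0.69) and the sodium channel gene Scn7a (-0.68), the second at -0.26 with the score. Of 33 cell division genes 1 rose, Mcm5 (0.69), and 3 fell, Bub1 (-0.7), Ccne2 (-0.8) and Cenpf (-0.91), none of which was called with the library score as a covariate or with the 3 libraries alone.

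Satellite cell genes gave 1 rise of 14, Chrdl2 (0.59), and Pax7, the factor that marks these stem cells, changed by 0.06 ± 0.1. Mast cell and neutrophil genes gave 3 rises of 13, S100a9 (0.7), Csf3r (0.84) and Cxcr2 (0.96), with summed levels of 53.88 to 150.4 CPM and 60.62 to 395.3 CPM, and B cell genes 1 of 9, Blk (1.01). Chemokine genes gave 2 rises of 24, Ccl21 (0.71) and Cxcr3 (0.76). Among genes of the integrated stress response, Ddit4 (0.61) and Cth (0.8) rose and Vldlr (-0.62) and Aldh1l2 (-0.67) fell, of 18. Of 22 heat shock genes 1 fell, Hsp90aa1 (-0.65), and of 23 cholesterol synthesis genes 1, Idi1 (-0.73), and with the score as a covariate they were at -0.03 and -0.07 and not called. Of 34 proteasome subunits and 12 polyamine enzymes none was called by limma-voom, edgeR or DESeq2, with 23 and 2 higher and 3 and 3 lower at an unadjusted p under 0.05. Of 6 red cell genes none was called by limma-voom (1 higher at an unadjusted p under 0.05, and 1 by edgeR and by DESeq2). Adipocyte genes gave 1 fall of 13, Retn (-0.75), mesothelial genes 1 rise of 12, Krt18 (1.3), which edgeR and DESeq2 did not call, and liver genes 1 rise of 10, Cyp2e1 (0.82).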
